A study of Mus musculus with 8 samples.

Results

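Immediate early genes are switched on within minutes when a cell is stimulated or stressed, and 35 of them were followed here across the nuclei of the mouse retina. The genes were chosen by name, from a list of activity and stress induced genes drawn up when results of these nuclei were already known, and all 35 were found by symbol among the 33696 genes of the count files. A higher Nr4a3 level in cKO amacrine nuclei was among those known results. The members' values between genotypes are therefore given as a description and are used to support nothing, and the comparisons between cell classes and within retinal ganglion cells (RGCs) were tested. The cKO amacrine values enter the class comparisons too, so these are also given for the control libraries alone.

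Nuclei came from the retinae of mice at postnatal day 120 (P120) and were profiled by droplet-based single-nucleus RNA sequencing (snRNA-seq), in which every captured RNA molecule carries a unique molecular identifier (UMI). The 4 control libraries (replicates 1 to 4) were from Piezo2f/f mice, in which both copies of the mechanosensitive channel gene Piezo2 are floxed but intact. The 4 cKO libraries (replicates 10 to 13) were from Olig2-cre;Piezo2f/f mice, which carry the same floxed copies and in which the Olig2 promoter drives Cre recombinase, a promoter best known from the oligodendrocyte lineage. Per the paper, Cre is inserted into the Olig2 gene itself, so cKO mice are also heterozygous for Olig2. No retina library carried Cre without the floxed copies. The paper states that female mice were used for snRNA-seq. Every library pooled 6 retinae and held nuclei enriched for RGCs by sorting on RBPMS and NeuN, so p-values measure the spread between pools.

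Synaptic input, calcium entry, growth factors and cell stress reach these genes through the kinases that act on the transcription factors CREB and SRF, which already sit at the promoters, so no new protein has to be made for transcription to begin. Many members encode transcription factors themselves (the FOS and JUN proteins of the AP-1 complex, the EGR zinc fingers, the NR4A orphan nuclear receptors and NPAS4). Others act at synapses (Arc, Homer1, Nptx2) or switch off the signal again (the DUSP phosphatases). In the retina Fos, Egr1 and Arc have long been used to mark neurons that were driven by light, and Jun and Atf3 to mark injured neurons. Dissection and tissue handling also induce them.

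The letters through which CREB acts can be read in the promoters of some members. RefSeq promoter windows (GRCm38.p6, 250 bases before to 50 after a transcription start) were matched by symbol for 24 of the 35 members, which together had 35 windows. The cAMP response element (CRE) is TGACGTCA, and its core is TGACG. Either strand was searched, and every CRE holds an overlapping pair of cores. The 250 bases before the start of Fos and of the 3 NR4A genes are shown 5′ to 3′ as examples, with each core, or its reverse complement, in capitals.
Fos, chr12:85473640-85473889, plus strand: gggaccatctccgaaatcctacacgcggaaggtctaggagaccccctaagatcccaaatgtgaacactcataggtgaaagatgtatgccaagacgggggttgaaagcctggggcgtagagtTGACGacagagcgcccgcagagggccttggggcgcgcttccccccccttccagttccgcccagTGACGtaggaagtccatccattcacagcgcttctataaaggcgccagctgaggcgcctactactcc
Nr4a1, chr15:101266596-101266845, plus strand: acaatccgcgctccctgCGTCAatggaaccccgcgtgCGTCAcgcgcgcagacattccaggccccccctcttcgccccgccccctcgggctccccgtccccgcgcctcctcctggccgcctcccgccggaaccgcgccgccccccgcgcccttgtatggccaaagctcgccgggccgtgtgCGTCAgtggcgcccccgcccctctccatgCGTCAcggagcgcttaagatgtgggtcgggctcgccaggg
Nr4a2, chr2:57124004-57124253, minus strand: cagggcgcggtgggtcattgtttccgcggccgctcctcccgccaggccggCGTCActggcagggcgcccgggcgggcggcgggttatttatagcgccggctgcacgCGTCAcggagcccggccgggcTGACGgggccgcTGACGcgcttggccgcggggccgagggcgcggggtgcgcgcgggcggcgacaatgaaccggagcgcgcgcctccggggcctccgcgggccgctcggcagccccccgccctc
Nr4a3, chr4:48045055-48045304, plus strand: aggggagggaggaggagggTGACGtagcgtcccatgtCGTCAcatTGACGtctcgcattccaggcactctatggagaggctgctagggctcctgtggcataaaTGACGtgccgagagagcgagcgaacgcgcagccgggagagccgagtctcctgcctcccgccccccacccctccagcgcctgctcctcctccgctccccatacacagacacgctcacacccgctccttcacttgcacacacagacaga
Fos held 2 cores and each of the 3 NR4A genes held 4, a number reached by 0.231% of the 32851 windows of all genes. These 4 genes do not stand for all members that recur in the results. Junb held 1 core, and Fosl2 and Jun held 0. At least 1 core was found in 24 of the 35 member windows (68.6%) and in 20.81% of all windows, and 17 of the 24 members with a window (70.8%) had it against 23.05% of 27025 genes. The whole CRE was in 8.6% of member windows and 1.79% of all, the EGR motif GCGTGGGCG in 5.7% and 0.61%, and the CArG box bound by SRF in 11.4% and 1.63%. All 4 windows with a CArG box were alternative and partly overlapping starts of 1 gene, Egr2, which is 4.2% of the members with a window, against 1.81% of all genes. The AP-1 motif TGANTCA was in 2.9% of member windows and 7.81% of all, and the NR4A motif AAAGGTCA in 0.0% and 1.51%. A match is only a run of letters, and binding was not measured.

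Of 34946 nuclei kept, 19447 passed a gate on RGC marker UMIs, 2719 amacrine, 1619 bipolar, 1652 rod, 348 cone, 1465 Müller glia and 94 horizontal cell gates. An endothelial gate held 11. Another 5506 passed none, and 2085 passed several and were set aside. Of 18 checks with markers that the gates had not used, 14 were highest in the named class. The exceptions were Isl1 in RGC (highest in bipolar), Pax6 in amacrine (highest in Müller glia), Crx in rod (highest in cone) and Rcvrn in cone nuclei (highest in rod). Median depth per library was 4858 to 10848 UMIs in RGC, 3822.5 to 8282 in amacrine, 1630 to 3569.5 in Müller glia and 931 to 1356 in rod nuclei. Horizontal nuclei exceeded 10 in only 3 libraries, and their members' levels are not described. Of 36322 barcodes, counted before doublets were removed, 149 occurred in more than 1 library. Piezo2, the floxed gene, stood in RGC nuclei at 17.9, 13.4, 14.6 and 10.6 CPM in control replicates 1 to 4 and 15.3, 13.6, 12.5 and 9.19 CPM in cKO replicates 10 to 13 (CPM, UMI counts scaled to 1000000 UMIs of the class in that library; two-sided exact permutation p = 0.486, the smallest p that 70 assignments allow being 0.0286). These counts cover the whole gene, and whether they would show the deletion was not tested.

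Members were compared between each class and RGCs within the same libraries (edgeR's quasi-likelihood test, a call being an adjusted p under 0.05 over all genes tested and an absolute log2 fold change over 0.5). Amacrine nuclei, from the inhibitory interneurons of the inner retina, had 17 of 33 tested members called higher (51.5%) and 2 lower (6.06%), against 15.9% and 14.8% of all 17933 genes tested. The 3 tested EGR genes and the 3 NR4A genes were all among the higher. In the 4 control libraries alone, an alternative chosen after seeing the data, amacrine nuclei had 12 of 32 tested members higher and 2 lower, against 14.3% and 13.4% of all genes. The calls of Fosb (log2 0.75), Egr4 (log2 0.77), Btg2 (log2 0.39), Gadd45b (log2 0.67), Per1 (log2 0.49) and Csrnp1 (log2 -0.06) were lost there, and Maff was called lower (log2 -1.24 ± 0.46, adjusted p = 0.0333). Egr1 was then at log2 0.8 ± 0.19 (adjusted p = 0.00108), against log2 1.41 over all libraries. Bipolar nuclei had 12 of 32 higher and 6 lower (all genes 19.5% and 26.1%), and rod nuclei 6 of 33 higher and 11 lower (20% and 29.5%). Cone nuclei had 2 of 31 higher and 5 lower (13.6% and 29.8%), and Müller glia had 11 of 32 higher and 11 lower (23.2% and 29.7%). In the control libraries alone bipolar nuclei had 12 of 31 higher and 3 lower (all genes 17.5% and 23.2%), and Atf3 was called higher. The calls of Dusp1, Fosl2, Maff and Ier5 were lost there, at log2 0.58, -1.28, -1.22 and -1.21. Müller glia had 12 of 31 higher and 6 lower (20.7% and 26.3%), with Egr1 called higher (log2 1 ± 0.3, adjusted p = 0.00223). Egr1 had 23, 14, 3 and 1 UMIs there in control replicates 1 to 4. The calls of Fosl2, Maff, Dusp4, Sik1 and Skil were lost in Müller glia, at log2 -0.33, -2.46, -1.46, -0.32 and -0.52. Rods had 4 of 29 higher and 7 lower (15.5% and 24.7%), with Homer1 and Crem now called lower. The calls of Fos, Nr4a2, Nptx2, Trib1, Skil and Klf10 were lost there, at log2 -0.45, 1.49, -0.78, 1.79, -0.37 and -1.05. Dusp4, with 0 UMIs in control rods, was not called either, and Csrnp1 could not be tested. Cones had 1 of 26 higher and 1 lower (9.13% and 17.4%), with only Btg2 and Homer1 called. A member enters a fit only where its counts are high enough in some sums, so these shares leave out members low everywhere. A member too low in RGC nuclei, as Atf3 was, enters only through a class where it is high. Its higher call is then favoured by entry and supports nothing, though the shares above count it. Egr3 and Egr4, under 1 CPM in every RGC library, may be such members too. Median log2 fold changes over tested members were 0.55 in amacrine, 0.14 in bipolar and -0.17 in Müller glia nuclei, and those of all genes -0.002, -0.08 and -0.12. They were -0.47 in rod and -0.515 in cone nuclei with members at 0 UMIs set to their bound (-0.60 and -0.61 as fitted), and -0.13 and -0.45 over all genes. A lower level of a class cannot tell fewer nuclei expressing a gene from less RNA in each. In what follows 3 levels in a row are the lowest, the median and the highest library (n = 8, or 7 for cones).

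**Figure D1:**
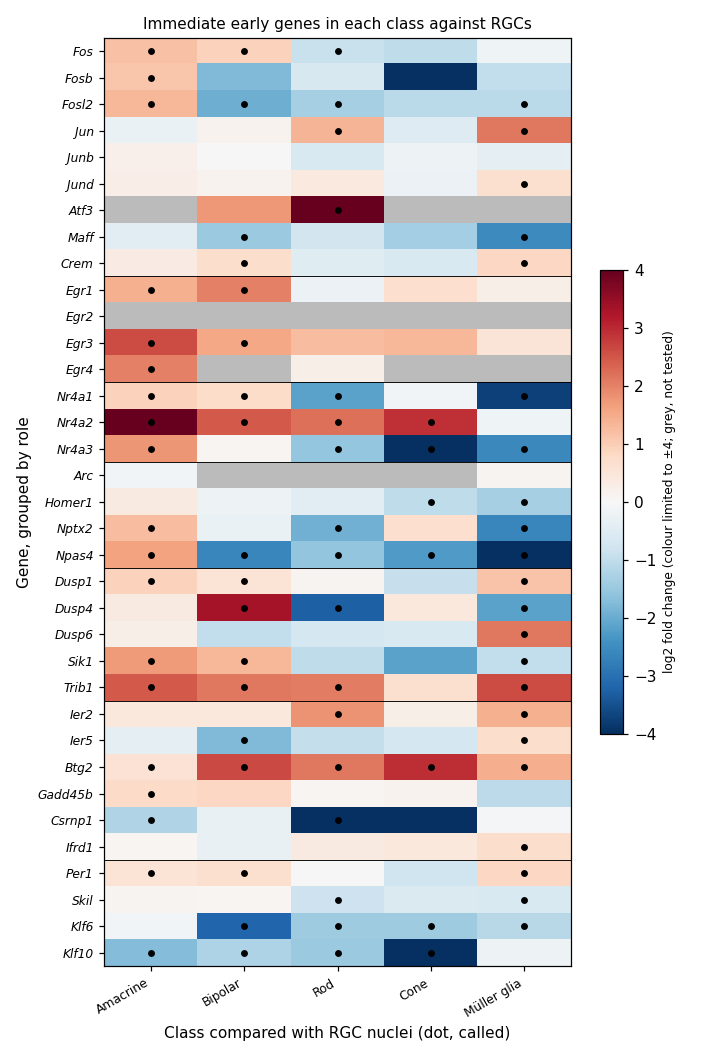
Log2 fold change of each member (rows, grouped by role) in 5 classes against RGC nuclei (columns); black dots mark calls, grey cells were not tested, and fitted values of members at 0 UMIs in a class (Fosb, Nr4a3 and Csrnp1 in cones, Csrnp1 in rods) are no estimate of size. The amacrine column holds 17 higher and 2 lower calls, and the Müller glia column 11 of each.

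Fos, the AP-1 partner most used to mark activated neurons (chr12:85520658-85524047, plus strand, GRCm39), stood at 4.81, 12.4 and 16.2 CPM in RGC nuclei. Fos was higher in amacrine nuclei (8.89, 26.1 and 52.9 CPM, log2 1.18 ± 0.1, adjusted p = 6.45e-12) and in bipolar nuclei (8.47, 27.6 and 38.6 CPM, log2 0.92 ± 0.16, adjusted p = 2.68e-06). It was lower in rod nuclei (0, 7.65 and 19.4 CPM, log2 -0.9 ± 0.31, adjusted p = 0.0174), a call that was lost in the control libraries alone (log2 -0.45, adjusted p = 0.536) and without cKO replicate 10 (log2 -0.77). The amacrine and RGC ranges overlapped, but Fos was higher in amacrine than in RGC nuclei of the same library in 8 of 8 libraries. Free RNA alone would give about 3.93 CPM of Fos in rods. Fosb, its close relative (0.317, 1.24 and 2.3 CPM in RGC nuclei), was higher in amacrine nuclei (0.416, 2.53 and 9.07 CPM, log2 1.1 ± 0.28, adjusted p = 0.00126). Fosl2, the FOS protein Fra-2, stood at 2.04, 5.63 and 9.08 CPM in RGC nuclei. It was higher in amacrine nuclei (5.93, 14.8 and 23.6 CPM, log2 1.32 ± 0.12, adjusted p = 6.08e-11). Fosl2 was lower in bipolar nuclei (0, 0.662 and 3.6 CPM, log2 -1.96 ± 0.44, adjusted p = 1.24e-04). Fosl2 was also lower in rod nuclei (0, 0 and 9.53 CPM, log2 -1.34 ± 0.51, adjusted p = 0.0272) and in Müller glia nuclei (0, 2.68 and 7.88 CPM, log2 -1.08 ± 0.39, adjusted p = 0.0132). All rod UMIs of Fosl2 were in cKO libraries. Over the control libraries alone the Fos mean was 22.5 CPM in bipolar and 20.7 CPM in amacrine nuclei. Junb, a JUN protein that pairs with FOS, was not called in any class, with medians of 11.8 CPM in RGC, 14.7 in amacrine and 10.5 in Müller glia nuclei.

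Jun, the AP-1 founder gene linked to axon injury, stood at 5.2, 5.88 and 6.25 CPM in RGC nuclei. Jun was higher in rod nuclei (11.2, 17.1 and 34.6 CPM, log2 1.37 ± 0.26, adjusted p = 5.84e-05) and in Müller glia nuclei (15.2, 33.8 and 47.3 CPM, log2 2.11 ± 0.2, adjusted p = 5.45e-17). Every rod and every Müller glia library was above every RGC library for Jun. Jund, the JUN protein present in resting cells (14.8, 19.3 and 24.8 CPM in RGC nuclei), was higher in Müller glia nuclei (19, 34.9 and 65.5 CPM, log2 0.64 ± 0.16, adjusted p = 2.28e-04). Free RNA would give 7.18 CPM of Jund there. Atf3, a stress-induced bZIP factor, stood at 0.176, 0.27 and 0.664 CPM in RGC nuclei. Atf3 was higher in rod nuclei (0, 7.95 and 17.1 CPM, log2 4.01 ± 0.55, adjusted p = 6.87e-07), where it had 18 UMIs in all. Free RNA would give 0.413 CPM of Atf3 there. Atf3 was too low in RGC nuclei to enter the fit by them, so its call in rods was favoured by entry and supports nothing. Maff, a small MAF protein and the only member with its highest mean over the 8 libraries in RGC nuclei (1.9, 2.48 and 3.37 CPM), was lower in bipolar nuclei (0, 0.601 and 3.22 CPM, log2 -1.47 ± 0.59, adjusted p = 0.0289). In Müller glia Maff had 2 UMIs, 0.205 times its RGC level (95% counting interval 0.0247 to 0.745) and was called lower (log2 -2.55 ± 0.77, adjusted p = 0.00285). Crem, whose products include the cAMP repressor ICER (36.6, 39 and 40.9 CPM in RGC nuclei), was higher in bipolar nuclei (61.2, 66 and 87.5 CPM, log2 0.71 ± 0.09, adjusted p = 2.67e-09) and in Müller glia nuclei (49.1, 87.2 and 102 CPM, log2 0.84 ± 0.1, adjusted p = 9.96e-12).

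Egr1, the zinc finger factor also called Zif268, stood at 4.67, 10.6 and 14.3 CPM in RGC nuclei. Egr1 was higher in amacrine nuclei (3.39, 28.5 and 61.9 CPM, log2 1.41 ± 0.14, adjusted p = 1.46e-10) and in bipolar nuclei (12.7, 45.2 and 74.2 CPM, log2 2.02 ± 0.15, adjusted p = 9.88e-19). Both ranges overlapped that of RGC nuclei, and within libraries Egr1 was higher than in RGC nuclei in 8 of 8 for bipolar and 7 of 8 for amacrine nuclei. Egr3 (0.411, 0.753 and 0.911 CPM in RGC nuclei) was higher in amacrine nuclei (2.14, 4.65 and 8.86 CPM, log2 2.6 ± 0.27, adjusted p = 4.89e-10) and in bipolar nuclei (0, 2.27 and 4.81 CPM, log2 1.53 ± 0.57, adjusted p = 0.0175), with every amacrine library above every RGC library. Egr4 (0.363, 0.53 and 0.762 CPM in RGC nuclei) was higher in amacrine nuclei (0.423, 1.53 and 6.01 CPM, log2 2.02 ± 0.37, adjusted p = 1.95e-05). Egr2 had 42 UMIs in RGC nuclei and at most 3 in any other class, and was not tested.

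Nr4a1, also called Nur77 (chr15:101151980-101172681, plus strand, GRCm39), stood at 28.5, 41.3 and 47.9 CPM in RGC nuclei. It was higher in amacrine nuclei (46.6, 82.2 and 102 CPM, log2 0.92 ± 0.06, adjusted p = 1.99e-15) and in bipolar nuclei (45.2, 64.9 and 117 CPM, log2 0.75 ± 0.1, adjusted p = 3.42e-09). Nr4a1 was lower in rod nuclei (0, 13.1 and 28.6 CPM, log2 -2.13 ± 0.28, adjusted p = 3.96e-07) and in Müller glia nuclei (0, 3.02 and 10.9 CPM, log2 -3.73 ± 0.25, adjusted p = 9.00e-26). Every Müller glia library was below every RGC library. Nr4a2, or Nurr1, the orphan receptor needed by dopamine neurons, stood at 1.05, 1.91 and 2.68 CPM in RGC nuclei. It had the largest rise of the members tested in amacrine nuclei, and was higher in amacrine nuclei (22.7, 32.3 and 45.9 CPM, log2 4.16 ± 0.13, adjusted p = 2.05e-23). Every amacrine library was above every RGC library for Nr4a2. Nr4a2 was higher as well in bipolar nuclei (6.44, 10.8 and 15.5 CPM, log2 2.46 ± 0.29, adjusted p = 8.88e-11). Nr4a2 was also higher in rod nuclei (0, 6.93 and 50 CPM, log2 2.21 ± 0.45, adjusted p = 1.50e-04) and in cone nuclei (0, 12.8 and 58 CPM, log2 2.91 ± 0.54, adjusted p = 4.14e-07). Of its 33 rod UMIs 21 were in cKO replicate 10, without which the rod value was log2 1.31. In the control libraries alone Nr4a2 was not called in rods (log2 1.49, adjusted p = 0.192) or cones (log2 1.97, adjusted p = 0.288).

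Nr4a3, or Nor1 (chr4:48045153-48086447, plus strand, GRCm39), stood at 2.31, 8.71 and 16.1 CPM in RGC nuclei. It was higher in amacrine nuclei (9.31, 28.5 and 60.1 CPM, log2 1.75 ± 0.13, adjusted p = 8.13e-14). That value includes the cKO amacrine libraries, and in the control libraries alone Nr4a3 was at log2 1.31 ± 0.19 (adjusted p = 2.67e-06). Nr4a3 was lower in rod nuclei (0, 0 and 14.6 CPM, log2 -1.54 ± 0.42, adjusted p = 0.00298) and in Müller glia nuclei (0, 1.07 and 5.46 CPM, log2 -2.58 ± 0.43, adjusted p = 1.46e-07). All rod UMIs of Nr4a3 were in cKO libraries. In cones Nr4a3 had 0 UMIs, at least 1.87-fold lower than RGC nuclei with a floor of 3 counts over the group (adjusted p = 2.91e-04). Müller glia were low in Nr4a1 and Nr4a3.

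Npas4, a transcription factor found almost only in neurons and induced by calcium entry (chr19:5034382-5040344, minus strand, GRCm39), stood at 7.16, 8.75 and 12 CPM in RGC nuclei. It was higher in amacrine nuclei (17.4, 26.6 and 50.9 CPM, log2 1.61 ± 0.12, adjusted p = 1.62e-13), with every amacrine library above every RGC library. Npas4 was lower in bipolar nuclei (0, 1.42 and 3.45 CPM, log2 -2.62 ± 0.37, adjusted p = 1.35e-08) and in rod nuclei (0, 3.81 and 9.74 CPM, log2 -1.57 ± 0.43, adjusted p = 0.00297). In Müller glia Npas4 had 2 UMIs, 0.0589 times the RGC level (95% counting interval 0.00712 to 0.213, log2 -4.38 ± 0.57, adjusted p = 4.18e-11), and in cones 2 UMIs, 0.336 times (0.0406 to 1.21, log2 -2.25 ± 0.82, adjusted p = 0.0165). Npas4 was the only member whose highest class did not overlap the next. Nptx2, a secreted pentraxin that gathers AMPA receptors at synapses (6.62, 7.96 and 9.4 CPM in RGC nuclei), was higher in amacrine nuclei (14, 18.9 and 29.4 CPM, log2 1.22 ± 0.11, adjusted p = 2.24e-11). Nptx2 was lower in rod nuclei (0, 3.15 and 11.2 CPM, log2 -1.91 ± 0.47, adjusted p = 0.00118) and in Müller glia nuclei (0, 0.805 and 5.18 CPM, log2 -2.62 ± 0.45, adjusted p = 2.70e-07). Every amacrine library was above every RGC library for Nptx2. Homer1, a postsynaptic scaffold whose short induced form and long forms are counted together (55.1, 66.6 and 81.5 CPM in RGC nuclei), was lower in cone nuclei (23.8, 44.9 and 75.8 CPM, log2 -1.03 ± 0.25, adjusted p = 2.02e-04) and in Müller glia nuclei (23.5, 32.8 and 49.1 CPM, log2 -1.32 ± 0.13, adjusted p = 9.29e-17). Arc, the gene of a capsid-forming postsynaptic protein, was near the limit of detection, with 123 UMIs in RGC, 13 in amacrine and 4 in Müller glia nuclei, and was not called.

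Among feedback regulators, Dusp1, which removes phosphate from p38 and JNK kinases (4.9, 7.64 and 8.79 CPM in RGC nuclei), was higher in amacrine nuclei (5.93, 15.6 and 21.5 CPM, log2 0.92 ± 0.12, adjusted p = 5.45e-08). Dusp1 was also higher in bipolar nuclei (4.24, 12.1 and 24.1 CPM, log2 0.56 ± 0.23, adjusted p = 0.0369) and in Müller glia nuclei (8.64, 19.2 and 27.8 CPM, log2 1.13 ± 0.21, adjusted p = 2.50e-06). Dusp4, a nuclear ERK phosphatase (1.9, 2.46 and 4.87 CPM in RGC nuclei), was higher in bipolar nuclei (12.9, 28.1 and 46.8 CPM, log2 3.32 ± 0.19, adjusted p = 1.48e-23), with every bipolar library above every RGC library. Rods held 1 Dusp4 UMI, 0.14 times the RGC level (95% counting interval 0.00354 to 0.783, log2 -3.27 ± 0.89, adjusted p = 0.00289), and Müller glia 3, 0.261 times (0.0537 to 0.768, log2 -2.15 ± 0.67, adjusted p = 0.00368). Dusp6, the cytoplasmic ERK phosphatase (0.771, 1.37 and 2.21 CPM in RGC nuclei), was higher in Müller glia nuclei (0, 8.68 and 12.8 CPM, log2 2.1 ± 0.38, adjusted p = 1.07e-06).

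Sik1, a kinase that restrains CREB coactivators (1.95, 4.44 and 6.64 CPM in RGC nuclei), was higher in amacrine nuclei (7.62, 12.6 and 30.1 CPM, log2 1.7 ± 0.14, adjusted p = 3.92e-12) and in bipolar nuclei (4.24, 11.6 and 20.7 CPM, log2 1.33 ± 0.25, adjusted p = 6.67e-06). Sik1 was lower in Müller glia nuclei (0, 3.28 and 6.4 CPM, log2 -0.99 ± 0.45, adjusted p = 0.0494). Trib1, a pseudokinase that targets proteins for degradation (0.645, 1.1 and 1.79 CPM in RGC nuclei), was higher in amacrine nuclei (4.16, 6.71 and 9.74 CPM, log2 2.47 ± 0.21, adjusted p = 4.38e-12). Trib1 was also higher in bipolar nuclei (1.2, 6.98 and 12.9 CPM, log2 2.1 ± 0.4, adjusted p = 9.37e-06) and in rod nuclei (0, 7.23 and 11.2 CPM, log2 2.05 ± 0.47, adjusted p = 6.18e-04). Trib1 was also higher in Müller glia nuclei (0, 6.42 and 19 CPM, log2 2.61 ± 0.37, adjusted p = 1.56e-09). Every amacrine library was above every RGC library.

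Of the growth and stress genes, Btg2, an antiproliferative gene induced by p53 (5.39, 7.86 and 13.2 CPM in RGC nuclei), was higher in amacrine nuclei (6.77, 12.7 and 24.9 CPM, log2 0.58 ± 0.12, adjusted p = 7.52e-05) and in bipolar nuclei (40.2, 46.1 and 90.2 CPM, log2 2.64 ± 0.13, adjusted p = 8.79e-26). It was higher as well in rod nuclei (22.7, 52 and 69.1 CPM, log2 2.12 ± 0.2, adjusted p = 1.11e-09). Btg2 was also higher in cone nuclei (72, 96.2 and 122 CPM, log2 2.96 ± 0.27, adjusted p = 9.04e-27) and in Müller glia nuclei (15.6, 29.4 and 40.6 CPM, log2 1.47 ± 0.19, adjusted p = 1.79e-11). Btg2 was the only member called higher in all 5 classes. Every bipolar, rod, cone and Müller glia library was above every RGC library for Btg2.

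Ier2 (2.13, 3.6 and 4.56 CPM in RGC nuclei) was higher in rod nuclei (9.53, 16.9 and 27.1 CPM, log2 1.79 ± 0.31, adjusted p = 2.11e-05) and in Müller glia nuclei (2.53, 8.68 and 30.1 CPM, log2 1.42 ± 0.32, adjusted p = 5.27e-05). Ier5 (3.82, 5.05 and 5.53 CPM in RGC nuclei) was higher in Müller glia nuclei (0, 8.01 and 17.1 CPM, log2 0.71 ± 0.29, adjusted p = 0.0268). Ier5 was lower in bipolar nuclei (0, 0.772 and 3.6 CPM, log2 -1.75 ± 0.45, adjusted p = 6.99e-04). Gadd45b, a stress sensor (0.885, 1.76 and 2.51 CPM in RGC nuclei), was higher in amacrine nuclei (1.45, 3.19 and 4.75 CPM, log2 0.76 ± 0.25, adjusted p = 0.0118). Csrnp1 (0.907, 1.57 and 2.14 CPM in RGC nuclei) was lower in amacrine nuclei (0, 0.74 and 2.09 CPM, log2 -1.21 ± 0.45, adjusted p = 0.022), and had 0 UMIs in rods, at least 1.2-fold lower than RGC nuclei (adjusted p = 0.0136). Ifrd1, a differentiation cofactor (40.6, 47.8 and 56.3 CPM in RGC nuclei), was higher in Müller glia nuclei (76, 95.9 and 110.3 CPM, log2 0.71 ± 0.1, adjusted p = 5.80e-10). Every Müller glia library was above every RGC library for Ifrd1.

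Of the remaining regulators, Klf10, a factor induced by TGF-beta (12.7, 14.5 and 21.8 CPM in RGC nuclei), was lower in amacrine nuclei (3.55, 5.11 and 6.35 CPM, log2 -1.74 ± 0.13, adjusted p = 2.76e-13). Klf10 was also lower in bipolar nuclei (2.82, 7 and 13.9 CPM, log2 -1.23 ± 0.22, adjusted p = 2.79e-06) and in rod nuclei (0, 9.66 and 18.1 CPM, log2 -1.48 ± 0.36, adjusted p = 9.72e-04). Every amacrine library was below every RGC library. Cones held 1 Klf10 UMI, 0.0967 times the RGC level (95% counting interval 0.00245 to 0.539, log2 -4.01 ± 0.87, adjusted p = 2.20e-05). Klf6, a factor that promotes axon growth (15.4, 18.2 and 23 CPM in RGC nuclei), was lower in bipolar nuclei (0, 2.07 and 6.01 CPM, log2 -3.19 ± 0.31, adjusted p = 1.23e-13) and in rod nuclei (0, 8.61 and 22.4 CPM, log2 -1.42 ± 0.29, adjusted p = 1.57e-04). It was lower as well in cone nuclei (0, 11.9 and 19.3 CPM, log2 -1.42 ± 0.5, adjusted p = 0.0128) and in Müller glia nuclei (0, 10.2 and 27.3 CPM, log2 -1.11 ± 0.23, adjusted p = 1.12e-05). Every bipolar library was below every RGC library for Klf6.

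Skil, which restrains TGF-beta signalling (21.4, 29.4 and 32.9 CPM in RGC nuclei), was lower in rod nuclei (9.74, 25.4 and 36.3 CPM, log2 -0.84 ± 0.21, adjusted p = 0.00144) and in Müller glia nuclei (19.2, 21.3 and 49.1 CPM, log2 -0.6 ± 0.16, adjusted p = 8.06e-04). Per1, a clock gene that CREB induces (18.1, 26 and 32.2 CPM in RGC nuclei), was higher in amacrine nuclei (23.7, 36.2 and 56.8 CPM, log2 0.55 ± 0.08, adjusted p = 2.51e-07). Per1 was also higher in bipolar nuclei (18.9, 38.4 and 68 CPM, log2 0.64 ± 0.12, adjusted p = 1.36e-05) and in Müller glia nuclei (31.5, 49.6 and 79 CPM, log2 0.83 ± 0.14, adjusted p = 9.97e-08).

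By mean level, 15 members were highest in amacrine nuclei, 11 in Müller glia, 3 in cones, 3 in rods, 2 in bipolar nuclei and 1 in RGC nuclei. Over the control libraries alone the numbers were 9 in amacrine nuclei, 9 in Müller glia, 3 in cones, 3 in rods, 9 in bipolar nuclei and 2 in RGC nuclei. Some of these places rest on single UMIs. Egr2 in rods, Gadd45b in cones and Arc in Müller glia had at most 1 UMI in any library. So did Egr4 in cones and Egr2 in bipolar nuclei, their highest classes in the control libraries. In all but Npas4 the highest class overlapped the next over libraries, so these ranges do not resolve the order of neighbouring classes. Ranges leave out the pairing by library. Where RGCs came next, the paired fits called Fosb and Fosl2 in amacrine and Ier5 in Müller glia nuclei. They did not call Homer1 or Klf6 in amacrine nuclei, nor Arc, Csrnp1 or Klf10 in Müller glia. RGC markers summed to 116 to 286 CPM in amacrine nuclei against 2113 to 2554 CPM in RGC nuclei, and amacrine markers to 20.7 to 35.4 CPM in RGC nuclei against 965 to 1301 CPM in amacrine nuclei. Leaving out 1 library ended several calls. In amacrine nuclei these were Csrnp1 (without cKO replicate 10, 12 or 13), and Gadd45b and Per1 (each without cKO replicate 13). In bipolar nuclei Dusp1 was lost without control replicate 1, 2 or 4, or cKO replicate 12 or 13. Maff was lost there without control replicate 1 or 4, or cKO replicate 10, 12 or 13, and Egr3 without control replicate 2 or cKO replicate 12. In cones Klf6 was lost without control replicate 3, or cKO replicate 11 or 12. Npas4 was lost there without control replicate 1 or 2, or cKO replicate 10, 12 or 13. In Müller glia Fosl2 was lost without cKO replicate 13, and Jund without control replicate 2. Ier5 was lost there without control replicate 2 or 3, or cKO replicate 12, and Sik1 without control replicate 1 or 3, or cKO replicate 10, 12 or 13. In rods Fosl2 was lost without control replicate 1 or cKO replicate 12, and Fos without cKO replicate 10. Thinning every nucleus to 2000 UMIs left 200 rod nuclei in 7 libraries, and 7 members were then called in rods in place of 17. Jun (log2 0.38 ± 0.75, adjusted p = 0.75) and Ier2 (log2 0.5 ± 0.96, adjusted p = 0.741) were not, nor were Fos, Fosl2, Nr4a3, Npas4 and Klf10, all 5 still below 0. Nr4a2, Dusp4 and Csrnp1 could no longer be tested.

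Within RGCs the members were uneven between subclasses, which were gated on the UMIs of known subtype markers in each library. A gate needed at least 2 UMIs, and nuclei with fewer stayed among the other RGCs. Nuclei passing on Opn4, the photopigment melanopsin, or Eomes, a factor that specifies melanopsin cells, numbered 425 and mark intrinsically photosensitive RGCs. They had 14 of 33 tested members called higher (42.4%) and 1 lower, against 7.41% and 6.95% of 17579 genes, with a median log2 fold change over members of 0.56 (all genes -0.05). Sik1 stood at 12, 31.6 and 52.2 CPM against 1.59, 3.77 and 5.8 CPM (log2 3.06 ± 0.22, adjusted p = 2.81e-28) in these nuclei against the other RGCs. Nr4a3 stood at 8.06, 69.2 and 104 CPM against 2.11, 6.32 and 13.4 CPM (log2 3.06 ± 0.16, adjusted p = 2.02e-41), and Fosl2 at 5.38, 30.4 and 61.5 CPM against 1.92, 4.78 and 7.47 CPM (log2 2.8 ± 0.2, adjusted p = 5.87e-29). These 3 genes were each higher in the gated nuclei of 8 of 8 libraries. Junb stood at 13.4, 51.4 and 75.7 CPM against 6.94, 10.5 and 12.7 CPM (log2 2.22 ± 0.15, adjusted p = 5.24e-30) and Fos at 12.1, 44 and 87.6 CPM against 4.55, 11.2 and 15.3 CPM (log2 1.92 ± 0.16, adjusted p = 3.11e-22). Arc, with 15 UMIs in the gated nuclei, stood at 0, 2.91 and 6 CPM against 0.281, 0.756 and 1.17 CPM (log2 2.17 ± 0.55, adjusted p = 9.98e-04), and Fosb, with 23 UMIs, at 0, 3.12 and 26.1 CPM against 0.328, 1.11 and 2.21 CPM (log2 1.96 ± 0.46, adjusted p = 3.39e-04). Without cKO replicate 13 the calls of Fosb (log2 0.94) and Per1 (log2 0.47) were lost, and that of Gadd45b without control replicate 1, control replicate 2 or cKO replicate 11 (log2 1.16, 0.96 and 0.84). Control replicate 3 was the lowest of the gated libraries for Nr4a3, Fosl2, Junb and Fos.

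The remaining calls in the same nuclei were smaller. Btg2 stood at 12.1, 28.9 and 46.6 CPM against 5.16, 7.25 and 12.5 CPM (log2 1.88 ± 0.19, adjusted p = 4.79e-17), and Egr1 at 4.03, 37.6 and 52.2 CPM against 4.69, 9.51 and 14.1 CPM (log2 1.61 ± 0.17, adjusted p = 2.10e-15). Dusp1 stood at 2.69, 16.1 and 37.3 CPM against 4.97, 6.96 and 8.51 CPM (log2 1.27 ± 0.22, adjusted p = 6.85e-07), and Npas4 at 8.06, 23.3 and 29.8 CPM against 6.37, 8.33 and 11.7 CPM (log2 1.25 ± 0.2, adjusted p = 4.14e-08). Gadd45b, with 19 UMIs, stood at 0, 3.29 and 13.5 CPM against 0.856, 1.62 and 2.5 CPM (log2 1.2 ± 0.45, adjusted p = 0.0398). Nr4a1 stood at 41.7, 75.6 and 106 CPM against 28.1, 40.4 and 47 CPM (log2 0.88 ± 0.1, adjusted p = 1.14e-13) and Per1 at 20.2, 37.5 and 59.6 CPM against 17.8, 25.8 and 31.8 CPM (log2 0.56 ± 0.13, adjusted p = 4.98e-04). Nptx2 was the only member called lower, at 0, 2.88 and 14.2 CPM against 6.8, 8.13 and 9.6 CPM (log2 -1.24 ± 0.34, adjusted p = 0.00284). Amacrine markers summed to 14.9 to 34.9 CPM in the gated nuclei and 20.7 to 35.5 CPM in the other RGCs. They were deeper, with library medians of 6113 to 11782.5 UMIs against 4835.5 to 10833. With all RGC nuclei thinned to 2000 UMIs before the gate, Nr4a3 (log2 3.55), Fosl2 (log2 3.41) and Junb (log2 2.84) were called. Fos (log2 1.7, adjusted p = 0.063), Egr1 (log2 1.71, adjusted p = 0.0819) and Npas4 (log2 1.91, adjusted p = 0.0683) then missed the threshold. So did Sik1 (log2 1.96, adjusted p = 0.174), Nr4a1 (log2 0.87, adjusted p = 0.194), Btg2 (log2 0.88, adjusted p = 0.56) and Dusp1 (log2 0.15, adjusted p = 0.953). Nptx2 was not called either (adjusted p = 0.195), and Arc, Fosb and Gadd45b could no longer be tested. Per1 was at log2 -0.007.

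**Figure D2:**
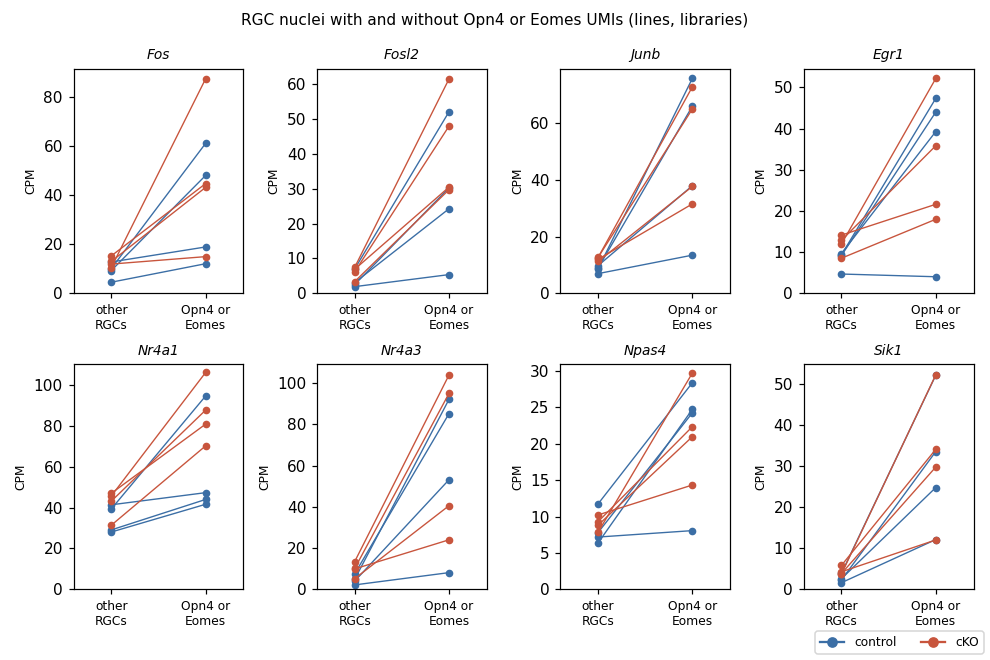
CPM of 8 members in RGC nuclei outside (left) and inside (right) the Opn4 or Eomes gate of at least 2 UMIs, 1 line per library, blue for control and red for cKO. All lines rise for Nr4a3 and Sik1, and control replicate 3 stays low for Fos, Fosl2, Junb, Egr1 and Npas4.

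Cartpt marks direction-selective RGCs, and 4129 nuclei passed its gate. They had 7 of 32 tested members called higher and 0 lower (all 17124 genes 2.46% and 3.14%, 16 members at an unadjusted p under 0.05 and 7 called by DESeq2). Nr4a3 stood at 3.46, 15.6 and 31.1 CPM against 2.03, 6.92 and 11.2 CPM (log2 1.13 ± 0.1, adjusted p = 3.99e-11) in Cartpt nuclei against the others. Npas4 stood at 11.2, 12.2 and 19.5 CPM against 6.21, 7.37 and 9.85 CPM (log2 0.82 ± 0.08, adjusted p = 1.47e-09), and Fos at 5.76, 17.5 and 26.1 CPM against 4.57, 11 and 12.9 CPM (log2 0.65 ± 0.09, adjusted p = 9.10e-07). Each of these 3 genes was higher in the Cartpt nuclei of 8 of 8 libraries. Nr4a1 stood at 38, 54.7 and 68 CPM against 26.2, 37 and 42.8 CPM (log2 0.62 ± 0.04, adjusted p = 2.22e-13), and Nptx2 at 9.66, 11.3 and 16.6 CPM against 5.59, 6.99 and 8.43 CPM (log2 0.7 ± 0.1, adjusted p = 5.12e-07), both again higher in 8 of 8. Fosb stood at 0.591, 1.88 and 4.78 CPM against 0.226, 1.04 and 1.61 CPM (log2 0.98 ± 0.26, adjusted p = 0.00501). Fosl2 stood at 2.31, 7.87 and 13 CPM against 1.98, 5.22 and 7.82 CPM (log2 0.54 ± 0.12, adjusted p = 0.00125), and these last 2 genes were higher in 6 and 7 of 8 libraries. Without cKO replicate 10 the calls of Fosb (log2 0.8) and Fosl2 (log2 0.4965) were lost, and without cKO replicate 13 that of Fosl2 (log2 0.497). Thinned to 2000 UMIs before the gate, 5 members were called, Nr4a3, Fos, Npas4, Nr4a1 and Egr1, at log2 1.4, 1.2, 1.1, 0.81 and 0.7.

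Foxp2 nuclei, 3328 in all and from a group of small RGC types, showed mostly lower levels, with 11 of 30 tested members called lower and 2 higher (all 16879 genes 7.96% and 4.91%). All 3 NR4A receptors were among the lower, though Nr4a2 was not called without cKO replicate 12 (log2 -0.77). Nr4a1 stood at 17.8, 22.7 and 36 CPM against 30.3, 44.4 and 52 CPM (log2 -0.78 ± 0.07, adjusted p = 5.87e-14) in Foxp2 nuclei against the others. Nr4a3 stood at 1.18, 4.83 and 5.61 CPM against 2.52, 9.33 and 18.3 CPM (log2 -1.17 ± 0.15, adjusted p = 6.72e-09), and Nr4a2 at 0.233, 1.11 and 2.41 CPM against 1.18, 1.93 and 2.92 CPM (log2 -0.97 ± 0.31, adjusted p = 0.012). Of the AP-1 genes 4 were lower as well. Fos stood at 1.48, 8.83 and 11.1 CPM against 5.41, 12.9 and 17.5 CPM (log2 -0.6 ± 0.11, adjusted p = 1.54e-05), and Fosb at 0, 0.332 and 1.72 CPM against 0.375, 1.34 and 2.41 CPM (log2 -1.36 ± 0.4, adjusted p = 0.00609). Fosl2 stood at 1.32, 2.82 and 4.67 CPM against 2.04, 6.02 and 9.95 CPM (log2 -1.09 ± 0.17, adjusted p = 7.20e-07), and Junb at 4.88, 7.46 and 9.56 CPM against 7.29, 12.5 and 15.5 CPM (log2 -0.72 ± 0.11, adjusted p = 1.23e-06). Fos, Fosb, Junb, Nr4a1 and Nr4a3 were lower in the Foxp2 nuclei of all 8 libraries.

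Outside those families Egr1 stood at 1.77, 7.1 and 12.3 CPM against 5.2, 11.7 and 15.5 CPM (log2 -0.58 ± 0.13, adjusted p = 5.28e-04) in Foxp2 nuclei, and Sik1 at 0.885, 2.65 and 5.15 CPM against 2.14, 4.84 and 6.92 CPM (log2 -0.79 ± 0.19, adjusted p = 5.77e-04). Btg2 stood at 3.33, 4.39 and 7.72 CPM against 5.68, 8.58 and 14.9 CPM (log2 -0.91 ± 0.14, adjusted p = 3.99e-07), and Gadd45b at 0.578, 0.982 and 1.86 CPM against 0.863, 1.92 and 2.78 CPM (log2 -0.8 ± 0.28, adjusted p = 0.0252). Egr1, Sik1 and Btg2 were lower in 8 of 8 libraries and Gadd45b in 7. Egr1 was not called without control replicate 4 (log2 -0.44), nor Gadd45b without control replicate 3 (log2 -0.71) or cKO replicate 12 (log2 -0.66). The higher members were the AP-1 gene Jun, at 5.83, 8.03 and 11.1 CPM against 4.82, 5.23 and 6.03 CPM (log2 0.7 ± 0.13, adjusted p = 1.52e-05), and Nptx2, at 10.9, 13.3 and 18 CPM against 5.84, 6.98 and 8.75 CPM (log2 0.99 ± 0.1, adjusted p = 6.32e-12). With thinning before the gate, 6 members were called, Nr4a3, Fosl2, Nr4a1, Junb and Fos lower and Nptx2 higher. Jun was then at log2 0.03 (adjusted p = 0.98), Sik1 at log2 -0.35 (adjusted p = 0.757), Egr1 at log2 -0.53 (adjusted p = 0.232) and Btg2 at log2 -0.89 (adjusted p = 0.0516). Nr4a2, Fosb and Gadd45b could no longer be tested.

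Spp1, the osteopontin gene that marks large alpha RGCs, gated 647 nuclei, with 9820.5 to 24111.5 median UMIs per library. Of 31 tested members 3 were called higher and 7 lower (all 17372 genes 10.8% and 11.9%). The higher members were Gadd45b, at 3.12, 5.04 and 8.5 CPM against 0.715, 1.44 and 2.01 CPM (log2 1.93 ± 0.27, adjusted p = 8.32e-09), and Csrnp1, at 1.11, 2.86 and 4.67 CPM against 0.865, 1.42 and 2 CPM (log2 1.15 ± 0.33, adjusted p = 0.00304). Junb was the other, at 14.1, 17.7 and 21.3 CPM against 6.58, 11.4 and 14.4 CPM (log2 0.62 ± 0.13, adjusted p = 5.82e-05), and all 3 were higher in 8 of 8 libraries. Nptx2 was lower, at 0, 1.65 and 3.12 CPM against 6.92, 8.41 and 10.1 CPM (log2 -2.34 ± 0.27, adjusted p = 1.17e-11). Btg2 stood at 0.805, 3.02 and 8 CPM against 5.67, 7.88 and 13.9 CPM (log2 -1.11 ± 0.23, adjusted p = 4.37e-05), and Jun at 1, 2.62 and 7.77 CPM against 5.42, 5.91 and 6.61 CPM (log2 -1.09 ± 0.27, adjusted p = 4.62e-04). Egr1 stood at 3.38, 5.77 and 11.6 CPM against 4.47, 11 and 15.1 CPM (log2 -0.9 ± 0.2, adjusted p = 1.07e-04), and Nr4a3 at 1.45, 5.97 and 9.34 CPM against 2.07, 8.98 and 17 CPM (log2 -0.69 ± 0.23, adjusted p = 0.00989). Both KLF genes were lower, Klf10 at 7.33, 9.7 and 14.2 CPM against 12.8, 14.9 and 22.4 CPM (log2 -0.73 ± 0.14, adjusted p = 1.03e-05) and Klf6 at 7.01, 13.6 and 17.4 CPM against 15.7, 18.6 and 23.5 CPM (log2 -0.55 ± 0.13, adjusted p = 2.30e-04). Nptx2, Klf6 and Klf10 were lower in all 8 libraries. Without cKO replicate 13 Klf6 was not called (log2 -0.47), nor Nr4a3 without cKO replicate 10 (log2 -0.42). No member was called after thinning to 2000 UMIs before the gate, where Nr4a3 was at log2 0.10.

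Chrm2 nuclei (1251), which carry a muscarinic receptor gene, had 3 of 31 members called higher and 1 lower (all 16926 genes 2.65% and 3.8%). The higher were Nr4a2, at 1.11, 2.86 and 5.91 CPM against 0.992, 1.84 and 2.45 CPM (log2 1.00 ± 0.29, adjusted p = 0.0136), and Fosl2, at 2.21, 10.4 and 14.9 CPM against 2.02, 5.35 and 8.75 CPM (log2 0.87 ± 0.17, adjusted p = 1.42e-04). Gadd45b stood at 0, 3.18 and 5.56 CPM against 0.724, 1.55 and 2.47 CPM (log2 1.15 ± 0.31, adjusted p = 0.0064). Nptx2 was lower, at 2.74, 6.05 and 8.9 CPM against 6.96, 8.25 and 9.82 CPM (log2 -0.66 ± 0.18, adjusted p = 0.00895), and no member was called after thinning. Without cKO replicate 12, 2 members were called. Tbr1 nuclei numbered more than 10 in only 3 libraries (40 nuclei). There edgeR and DESeq2 each called 0 of 30 members (2 at an unadjusted p under 0.05), against 0.821% of all 16082 genes higher and 1.97% lower. Their median over members was log2 -0.007 with members at 0 UMIs set to their bound, and -0.27 as fitted.

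**Figure D3:**
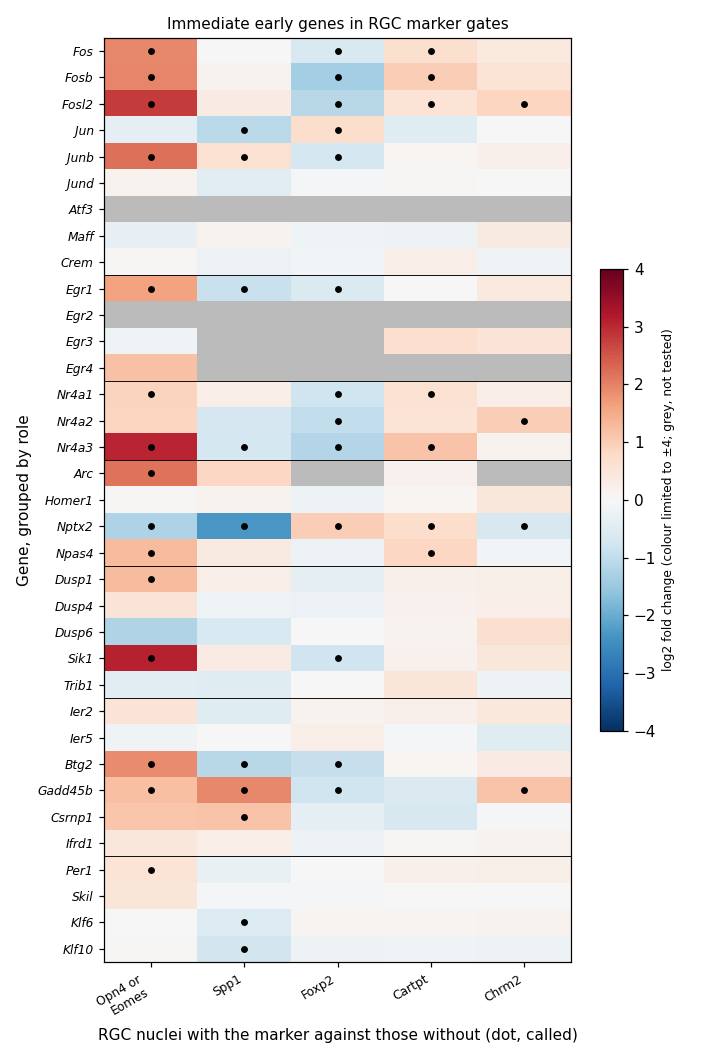
Log2 fold change of each member (rows, grouped by role) in RGC nuclei inside a subtype marker gate against RGC nuclei outside it (columns). Black dots mark calls and grey cells were not tested. The Opn4 or Eomes column holds 14 higher calls, the Cartpt column 7, and the Foxp2 column 11 lower calls.

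To ask which members were high in the same nuclei as Fos, RGC nuclei thinned to 2000 UMIs were split into 403 with a Fos UMI and 18918 without. Of 14172 genes, 30 were called higher (0.212%) and 89 lower (0.628%), and the members gave 8 higher and 0 lower of 27 tested besides Fos. A Fos UMI was seen in 0.682% to 2.98% of the thinned nuclei of a library, and the free RNA of 1 droplet, not thinned, would give one in 0.242% to 0.802%, a lower share in each of the 8 libraries. The split of all genes turned with the scaling. With RLE size factors 52 were higher and 29 lower, by DESeq2 31 and 16, and the median log2 fold change of all genes went from -0.09 to 0.04 with RLE, where 8 members were called. In the Fos nuclei Sik1 stood at 0, 17.8 and 48.4 CPM against 1.72, 3.67 and 6.77 CPM (log2 2.35 ± 0.45, adjusted p = 6.21e-05), and Nr4a3 at 0, 38.4 and 95.6 CPM against 2.67, 8.7 and 12.2 CPM (log2 2.18 ± 0.35, adjusted p = 4.38e-07). Fosl2 stood at 0, 24.5 and 36.8 CPM against 2.29, 3.88 and 7.67 CPM (log2 1.89 ± 0.47, adjusted p = 0.00912), Egr1 at 0, 36 and 113 CPM against 3.62, 9.61 and 12.8 CPM (log2 1.85 ± 0.34, adjusted p = 2.42e-05) and Junb at 0, 36.4 and 80 CPM against 6.87, 10.5 and 15.4 CPM (log2 1.67 ± 0.35, adjusted p = 3.62e-04). Npas4 stood at 0, 21.9 and 80.7 CPM against 4.64, 8.13 and 11.1 CPM (log2 1.54 ± 0.41, adjusted p = 0.0205), Nr4a1 at 36.4, 65.2 and 176 CPM against 27.5, 37.7 and 47.9 CPM (log2 1.05 ± 0.21, adjusted p = 1.62e-04) and Per1 at 27.8, 53 and 113 CPM against 17.4, 25.8 and 32.6 CPM (log2 0.99 ± 0.26, adjusted p = 0.0193). Per1 and Nr4a1 had UMIs in the Fos nuclei of every library, whereas the other 6 were at 0 in at least 1 library. Each of the 8 was higher in the Fos nuclei of 5 to 7 of 8 libraries. Without cKO replicate 10, 5 members were called, and the calls of Fosl2, Per1 and Nr4a1 (log2 0.68) were lost. Fosl2 was also lost without control replicate 2 or cKO replicate 11. Per1 was also lost without control replicate 2 or 4, or cKO replicate 13. Npas4 was lost without control replicate 1 or 4, or cKO replicate 13. The Fos nuclei of a library numbered 18 to 74, so single UMIs weigh heavily. Subtype markers moved with the split. Eomes (log2 1.9 ± 0.42, adjusted p = 0.00137), Opn4 (log2 1.84 ± 0.4, adjusted p = 7.38e-04), Spp1 (log2 1.09 ± 0.32, adjusted p = 0.0468) and Cartpt (log2 0.76 ± 0.11, adjusted p = 1.85e-08) were higher. Foxp2 was lower (log2 -0.8 ± 0.15, adjusted p = 6.34e-05), and the part of subtype in the members' rise was not tested.

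Beyond the members, 4 genes called higher moved that way in all 8 libraries. 1700016P03Rik, a noncoding gene (chr11:75063301-75070543, plus strand, GRCm39) that contains the microRNA genes Mir212 and Mir132, stood at 116 ± 33 against 43.5 ± 14.2 CPM (SD, n = 8; log2 1.23 ± 0.19, adjusted p = 8.50e-08). Both microRNAs are known CREB targets in neurons, and their mature sequences from RefSeq (GRCm38.p6) share the seed, bases 2 to 8, shown in capitals.
mmu-miR-212-3p: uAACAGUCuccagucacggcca
mmu-miR-132-3p: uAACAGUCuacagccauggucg
Mature microRNAs were not measured. Across all RGC nuclei 1700016P03Rik stood at 60.5, 45.6, 41.9 and 25.9 CPM in control replicates 1 to 4 and 47.2, 31, 63.2 and 56.7 CPM in cKO replicates 10 to 13. Amacrine nuclei held 63.8 to 172 CPM of it. Ror1, a WNT receptor kinase, stood at 61.6 ± 48.5 against 17.6 ± 1.83 CPM (SD, n = 8; log2 1.32 ± 0.3, adjusted p = 0.00193) in Fos nuclei against the rest. Adcyap1, which encodes the neuropeptide PACAP of photosensitive RGCs, stood at 52.5 ± 28.7 against 18.4 ± 3.07 CPM (SD, n = 8; log2 1.23 ± 0.29, adjusted p = 0.00326), and Kcnh1, a potassium channel gene, at 128 ± 62.5 against 67.7 ± 5.23 CPM (SD, n = 8; log2 0.63 ± 0.18, adjusted p = 0.0364). Of 89 genes called lower, 49 fell in all 8 libraries. As fitted, the 5 largest of these falls were Snhg10, 4930581F22Rik, Pde1a, Cacna1e and Knop1. Snhg10 had 0 UMIs (at least 2.12-fold lower), so its place in this order is not resolved. 4930581F22Rik had 1 UMI (ratio 0.102, 95% counting interval 0.00257 to 0.569). Pde1a stood at 8.94 ± 8.89 against 34.9 ± 4.46 CPM (SD, n = 8; log2 -1.95 ± 0.43, adjusted p = 0.00107), Cacna1e at 10 ± 12 against 34.8 ± 4.51 CPM (SD, n = 8; log2 -1.9 ± 0.43, adjusted p = 0.00187) and Knop1 at 14.1 ± 12.4 against 33.8 ± 5.23 CPM (SD, n = 8; log2 -1.49 ± 0.39, adjusted p = 0.0165).

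In amacrine nuclei the same Fos split gave shares of nuclei with a UMI of each partner that were low and uneven. Nr4a1 had a UMI in 21.9% ± 10.5 of Fos nuclei and 11.5% ± 1.92 of the others (SD, n = 8), higher in 7 of 8 libraries. Egr1 had one in 13.5% ± 16.2 and 4.61% ± 2.53, higher in 5 of 8. Nr4a3 had a UMI in 15.3% ± 13 of Fos nuclei and 3.45% ± 2.42 of the others (SD, n = 8), higher in 6 of 8 libraries. The shares for Npas4 were 12.2% ± 9.64 and 3.54% ± 1.61, also higher in 6 of 8. Junb had 2 such nuclei in all and was higher in 1 of 8 libraries.

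Control RGC nuclei with a Piezo2 UMI (636) were also set against those without (8619). The main fit here did not pair the sums of the same library, unlike the other splits within RGCs. Of 15167 genes 265 were called higher (1.75%) and 333 lower (2.2%), and edgeR called 0 of 27 tested members (3 at an unadjusted p under 0.05; DESeq2 called 0). Homer1 had an adjusted p of 0.0376 with a log2 fold change of 0.35, under the minimum for a call. The members' median log2 fold change was 0.09. Nr4a3 was called lower with library as a block (log2 -1.21 ± 0.32, adjusted p = 0.00825), and no other member was.

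Between genotypes edgeR called 0 members in every class. The list was drawn up with the Nr4a3 rise in cKO amacrine nuclei known. Low p-values, a shared direction and separated groups among members are therefore partly built in, and are given as a description that supports no genotype effect. In RGC nuclei it called 0.0% of 17783 genes (612 at an unadjusted p under 0.05, 2 called by DESeq2) and 0 of 33 tested members (8 at an unadjusted p under 0.05, 0 by DESeq2). In amacrine nuclei it called 0.0% of 12801 genes (541 at an unadjusted p under 0.05, 3 called by DESeq2) and 0 of 25 members (13 at an unadjusted p under 0.05, and 1, Nr4a3, by DESeq2). In bipolar nuclei 0 of 11 members were called (0.0% of 8512 genes; 2 members at an unadjusted p under 0.05), in rod nuclei 0 of 3 (0.0% of 5218 genes) and in Müller glia 0 of 9 (0.0% of 8010 genes). Rods and Müller glia had 0 members at an unadjusted p under 0.05, and DESeq2 called 0 in these 3 classes. No member had enough counts to be tested in cones (0.0506% of 1978 genes). The direction was mostly upward in cKO, with 28 of 33 members above 0 in RGC nuclei (median log2 0.24, all genes 0.01) and 24 of 25 in amacrine nuclei (median log2 0.47, all genes 0.003). Members whose 4 cKO libraries all lay above all 4 control libraries numbered 5 of 33 in RGC nuclei (Fosb, Ier2, Ifrd1, Junb and Per1, against 3.13% of all genes) and 5 of 25 in amacrine nuclei (Egr1, Ifrd1, Jund, Nr4a3 and Skil, 2.02%). They numbered 1 of 11 in bipolar nuclei (Jund, 1.32%), 1 of 3 in rods (Homer1, 0.939%) and 0 of 9 in Müller glia (1.57%). In bipolar nuclei Crem lay wholly below instead, as did 75 of 8512 genes. Control replicate 3 was the lowest of 8 libraries for 19 of the 32 members with at least 100 UMIs in RGC nuclei and for 12 of 20 in amacrine nuclei. Its median depth there was 7637 and 5775 UMIs, inside the range of the other libraries.

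In RGC nuclei Fos stood at 12.9, 11.7, 4.81 and 11 CPM in control replicates 1 to 4 and 16.2, 13.8, 12 and 12.8 CPM in cKO replicates 10 to 13 (log2 0.39 ± 0.23). Control replicate 3 was the low library, and the groups overlapped. Junb stood at 10.2, 10.6, 7.16 and 11.5 CPM in control replicates 1 to 4 and 12, 13.9, 12.5 and 14.4 CPM in cKO replicates 10 to 13 (log2 0.36 ± 0.14), without overlap. Egr1 stood at 9.99, 10.6, 4.67 and 10.7 CPM in control replicates 1 to 4 and 13.6, 14.3, 8.78 and 13.2 CPM in cKO replicates 10 to 13 (log2 0.41 ± 0.23), again with control replicate 3 below all others. Nr4a1 was at 41.5, 41, 28.5 and 29.7 CPM in control replicates 1 to 4 and 44.5, 32.3, 47.9 and 47.5 CPM in cKO replicates 10 to 13 (log2 0.24 ± 0.16), and Nr4a3 at 8.86, 5.44, 2.31 and 8.56 CPM in control replicates 1 to 4 and 16.1, 5.96, 10.2 and 12.6 CPM in cKO replicates 10 to 13 (log2 0.82 ± 0.37). Both overlapped between the genotypes. Arc was at 1.14, 0.628, 0.408 and 0.762 CPM in control replicates 1 to 4 and 0.965, 1.14, 0.851 and 0.609 CPM in cKO replicates 10 to 13 (log2 0.29 ± 0.31), and Npas4 at 12, 8.3, 7.21 and 7.16 CPM in control replicates 1 to 4 and 10.3, 8.36, 9.13 and 9.69 CPM in cKO replicates 10 to 13 (log2 0.07 ± 0.16). The highest Npas4 value was that of a control library. Fosb had the largest log2 fold change of RGC nuclei, at 0.975, 0.802, 0.317 and 0.939 CPM in control replicates 1 to 4 and 2.3, 1.52, 1.51 and 2.05 CPM in cKO replicates 10 to 13 (log2 1.26 ± 0.3). Trib1 had the smallest, at 1.79, 0.907, 1.54 and 0.645 CPM in control replicates 1 to 4 and 0.857, 1.14, 1.47 and 1.05 CPM in cKO replicates 10 to 13 (log2 -0.11 ± 0.32).

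In amacrine nuclei Nr4a3 had the largest log2 fold change of the members, at 21.6, 9.58, 9.31 and 26.1 CPM in control replicates 1 to 4 and 45.8, 30.9, 54.6 and 60.1 CPM in cKO replicates 10 to 13 (log2 1.57 ± 0.29). Every cKO library was above every control library. Egr1 stood at 22.3, 17.5, 3.39 and 27.1 CPM in control replicates 1 to 4 and 61.9, 42, 30 and 45.6 CPM in cKO replicates 10 to 13 (log2 1.38 ± 0.34), without overlap and with control replicate 3 the lowest. Fos stood at 28.6, 21.6, 8.89 and 23.7 CPM in control replicates 1 to 4 and 52.9, 40.4, 22.5 and 36.1 CPM in cKO replicates 10 to 13 (log2 0.89 ± 0.28), and Junb at 4.88, 9.16, 8.04 and 15 CPM in control replicates 1 to 4 and 18.1, 15.1, 14.5 and 25.3 CPM in cKO replicates 10 to 13 (log2 0.95 ± 0.29). The genotypes overlapped for both. Nr4a1 was at 75.2, 88.3, 46.6 and 54.6 CPM in control replicates 1 to 4 and 100.2, 76, 93.7 and 102 CPM in cKO replicates 10 to 13 (log2 0.47 ± 0.17), and Npas4 at 24.4, 36.2, 17.4 and 19.3 CPM in control replicates 1 to 4 and 50.9, 35.6, 27.8 and 25.3 CPM in cKO replicates 10 to 13 (log2 0.47 ± 0.24), both with overlap. Arc, with 13 UMIs in all, was at 0.697, 0.416, 1.69 and 0.967 CPM in control replicates 1 to 4 and 0.789, 1.58, 0 and 0.316 CPM in cKO replicates 10 to 13 and was not tested. Klf10 had the smallest log2 fold change, at 5.57, 4.58, 6.35 and 4.83 CPM in control replicates 1 to 4 and 3.55, 6.34, 4.28 and 5.38 CPM in cKO replicates 10 to 13 (log2 -0.19 ± 0.3). RGC markers in amacrine nuclei summed to 116 to 229 CPM in control and 160.4 to 286 CPM in cKO libraries, and their part in these values was not tested.

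**Figure D4:**
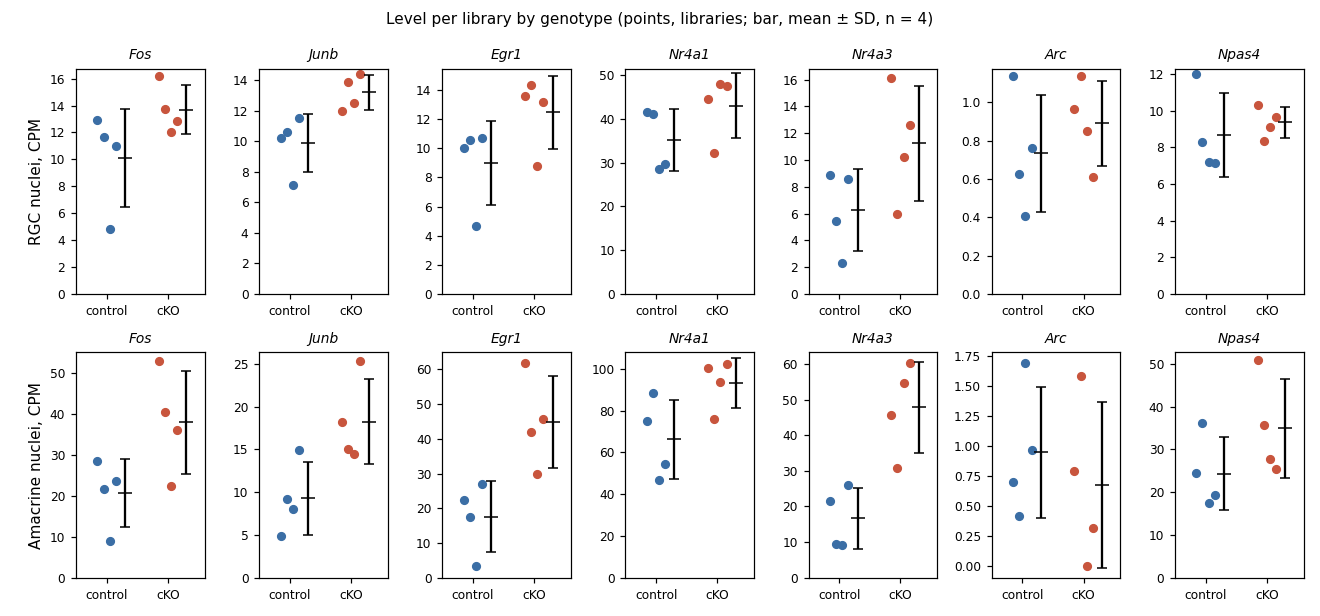
CPM of 7 members in RGC (upper row) and amacrine (lower row) nuclei, 1 point per library, with the mean ± SD of 4 libraries beside each genotype; each vertical axis has its own scale. In amacrine nuclei all 4 cKO points lie above all 4 control points for Egr1 and Nr4a3, and in RGC nuclei for Junb.

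In the other classes the largest and smallest log2 fold changes between genotypes were those of Skil (30.9, 25.2, 19.8 and 21.3 CPM in control replicates 1 to 4 and 26.5, 22.6, 48.2 and 70.7 CPM in cKO replicates 10 to 13, log2 0.8 ± 0.32) and Crem (66.4, 74.5, 80.5 and 87.5 CPM in control replicates 1 to 4 and 63.5, 61.2, 62.4 and 65.5 CPM in cKO replicates 10 to 13, log2 -0.3 ± 0.17) in bipolar nuclei. In rods they were those of Homer1 (58.1, 55.5, 61.5 and 51.2 CPM in control replicates 1 to 4 and 95.3, 63.5, 73.3 and 70.6 CPM in cKO replicates 10 to 13, log2 0.43 ± 0.23) and Ifrd1 (89, 94, 55.9 and 85.3 CPM in control replicates 1 to 4 and 95.3, 90.7, 81.5 and 68.2 CPM in cKO replicates 10 to 13, log2 0.02 ± 0.22). In Müller glia they were those of Dusp1 (23.4, 14.9, 8.64 and 11.8 CPM in control replicates 1 to 4 and 24.4, 10.9, 24.1 and 27.8 CPM in cKO replicates 10 to 13, log2 0.6 ± 0.38) and Jun (33.4, 34.1, 24.2 and 47.3 CPM in control replicates 1 to 4 and 19, 43.7, 38.6 and 15.2 CPM in cKO replicates 10 to 13, log2 -0.31 ± 0.34). The difference between the genotype effects of amacrine and RGC nuclei, a comparison added after the data were seen, called 1 of 17984 genes (0.00556%; Grik1, a kainate receptor gene chosen here after its value was seen, log2 -0.82 ± 0.09, adjusted p = 2.77e-06) and 0 of 33 members by edgeR and by DESeq2 (10 at an unadjusted p under 0.05). Egr1 had a difference of 0.99 ± 0.21 there, which rests on the same genotype values and is given as a description.

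Shares of nuclei with several members were compared with every nucleus thinned to 2000 UMIs, and describe the same values once more at the level of nuclei. At least 2 of 7 members (Fos, Junb, Egr1, Nr4a1, Nr4a3, Arc and Npas4) were seen in 1.44%, 1.62%, 0.568% and 1.96% in control replicates 1 to 4 and 2.85%, 1.61%, 1.35% and 2.74% in cKO replicates 10 to 13 of RGC nuclei. The means were 1.4% ± 0.595 in control and 2.13% ± 0.767 in cKO libraries (SD, n = 4 each), with overlap. In amacrine nuclei the shares were 4.17%, 4.09%, 1.33% and 3.49% in control replicates 1 to 4 and 11.1%, 5.76%, 8.71% and 7.58% in cKO replicates 10 to 13, with means of 3.27% ± 1.33 in control and 8.29% ± 2.24 in cKO libraries (SD, n = 4 each). All 4 cKO libraries were above all 4 control libraries. In Müller glia, low in Nr4a1, Nr4a3 and Npas4, the share was 0.499% over all libraries. Median depth there was 1630 to 3569.5 UMIs before thinning, and free RNA alone would give 0.00374% to 0.0323%. Fos, Junb and Egr1 were not called lower in Müller glia than in RGC nuclei, so this share is no floor for the others. Thinning left out 20 control and 106 cKO RGC nuclei, and 31 control and 37 cKO amacrine nuclei, for their depth. Without it the shares were 10.6% ± 3.6 in control and 13.9% ± 4.6 in cKO libraries (SD, n = 4 each) for RGC nuclei, and 17.1% ± 5.54 in control and 27.2% ± 5.4 in cKO libraries (SD, n = 4 each) for amacrine nuclei. Over all 35 members, at least 2 were seen in 15.8% ± 2.74 in control and 20.3% ± 0.263 in cKO libraries (SD, n = 4 each) of RGC nuclei and in 27.3% ± 4.27 in control and 37.9% ± 2.67 in cKO libraries (SD, n = 4 each) of amacrine nuclei. No test was made of a score over the members.

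**Figure D5:**
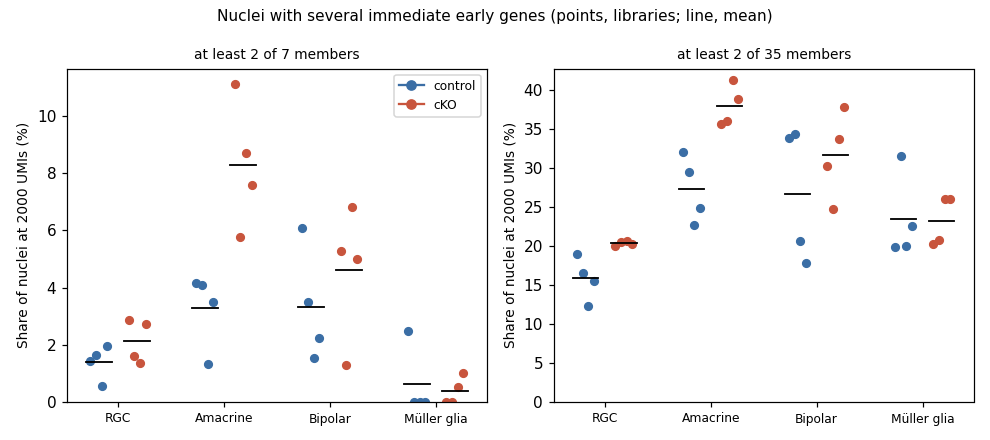
Share of nuclei, thinned to 2000 UMIs, with at least 2 of 7 members (left) or of all 35 members (right), by class, 1 point per library (blue control, red cKO) and lines for means. Amacrine cKO libraries, at 5.76% to 11.1%, lie above control libraries, at 1.33% to 4.17%, on the left.

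Other genes of the pathway were read from lists. Of 22 upstream factors (kinases, CREB, SRF and MEF2 partners), all tested, 1 was called higher and 1 lower in amacrine nuclei, Mef2c (log2 1.51 ± 0.03) and Rps6ka3 (log2 -0.81 ± 0.04), against 15.9% and 14.8% of all genes. In Opn4 or Eomes nuclei 2 were higher and 2 lower (all genes 7.41% and 6.95%), the lower being Camk4, a nuclear calcium kinase (log2 -2.17 ± 0.14), and Mef2c (log2 -1.47 ± 0.08). Of 26 other immediate early genes, 4 of 23 tested were higher and 5 lower in amacrine nuclei (17.4% and 21.7%, near the shares of all genes), among them Inhba, an activin subunit (log2 4.87 ± 0.2), Plk2 (log2 1.95 ± 0.09) and, lower, Bdnf (log2 -2.12 ± 0.08). Only Plk2 was higher in Opn4 or Eomes nuclei (log2 1.46 ± 0.18) of 21 tested, and Vgf was lower (log2 -0.76 ± 0.18). In Müller glia 11 of 23 were higher and 8 lower (all genes 23.2% and 29.7%). In Fos nuclei edgeR called 0 of 15 other immediate early genes, with 0 at an unadjusted p under 0.05, and between genotypes 0 genes of the 5 lists were called in any class.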

How the data were processed

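RNA was counted in nuclei of 8 retina libraries, 4 per genotype. Per the labels and the study's methods, the authors aligned reads to GRCm39 with Cell Ranger 7.0.0 and deposited unfiltered UMI counts per gene and barcode. Their later steps (removal of ambient RNA, doublets and low-quality nuclei, integration) are not in these counts, and whether intronic reads were counted is not given in the sources used here. Total depth was 35697629 to 60088630 UMIs per library.

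Barcodes were kept as nuclei by an order-of-magnitude step (0.1 of the 99th percentile of the top 8000 barcodes) or, from 500 UMIs, by a test against the profile of empty droplets (false discovery rate 0.001), with at least 200 genes and at most 5% mitochondrial UMIs, within 5 median absolute deviations in depth (3 for mitochondrial UMIs). The highest doublet scores (Scrublet in scanpy 1.11.5, 0.8% per 1000 nuclei) were removed. Gates needed at least 3 UMIs from at least 2 marker genes (3 genes for horizontal cells) beyond the free RNA of the library, and subclass gates at least 2 UMIs. The result of 1 planned subclass gate is not reported here, for a reason unrelated to its values. Class sums of more than 10 nuclei and more than 1000 counts were fitted with edgeR 4.0.16 (R 4.3.3, TMM, filterByExpr, quasi-likelihood, Benjamini-Hochberg). A call required an adjusted p below 0.05 together with a log2 fold change beyond 0.5 in either direction. Genotype was the only term between genotypes. Alternatives were DESeq2 1.42.0, RLE size factors, no filter, the order-of-magnitude step alone, no doublet removal, a stricter gate, thinning to 2000 UMIs, leaving out libraries and, between classes, control libraries only. Where a group held 0 UMIs, a fold is a bound at 3 counts over the group. Where it held 1 to 3, the ratio has a 95% counting interval, and intervals cover counting error only.

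The members and lists, that is, member roles, upstream factors, other immediate early genes, heat shock, nerve injury and clock genes, were chosen with earlier results of these data known. Described singly were members called in a comparison, 7 fixed genes between genotypes, the largest and smallest member of each genotype comparison, and the 10 largest rises and 5 largest falls around Fos that moved the same way in every library (4 rises qualified). On simulated counts edgeR recovered 99% and 100% of genes changed by log2 1 and 2 in RGC sums (17775 genes) and 86% and 100% in amacrine sums (12797 genes), and called 9 and 6 unchanged genes. For amacrine against RGC sums (17405 genes) it recovered 61% and 98%, and called 6 unchanged genes. The simulation changed only genes with higher counts and gave all genes a common dispersion (0.0164, 0.0156 and, at its upper limit, 0.1). Recovery of members with fewer counts or a wider spread was not tested.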

Additional observations from a re-analysis of the deposited data

Results flagged for a closer look

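Of 112 sets of 4 libraries of a genotype, each holding the levels of 1 member in RGC or amacrine nuclei, 6 held a library far from the other 3, and chance alone flags about 1 set in 20. In RGC nuclei Egr1 stood at 4.67 CPM in control replicate 3, below the nearest control library at 9.99 CPM. Nptx2 stood at 7.88 CPM in cKO replicate 10, with the nearest cKO library at 9.35 CPM, and Ier5 at 3.82 CPM in cKO replicate 13, with the nearest at 5.26 CPM. Klf10 was high in RGC nuclei of control replicate 1, at 18.4 CPM against 13.0 CPM in the nearest control library. In amacrine nuclei the same library was high for Homer1, at 110.8 CPM (nearest 82.8 CPM), and for Per1, at 51.5 CPM (nearest 27.1 CPM). Control replicate 1 also had the shallowest amacrine nuclei, with a median of 3822.5 UMIs, and the part of depth in these values was not tested.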

How the results depend on the processing

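No paired analysis was possible because the control libraries carry numbers 1 to 4 and the cKO libraries 10 to 13, with none shared. Of the counts and shares recomputed under the alternatives, 574 kept their side of the threshold or stayed within 1.5 times, 29 rose and 34 fell past it, and 4 shares moved. Of the values of the members described singly, in the comparisons where they are described, 2220 were unchanged in call and direction, 169 lost and 9 gained a call, and 11 changed sign. The cause of the changes was not tested, except that thinning and leaving out libraries shrink the counts by construction.

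Between genotypes, DESeq2 called 2 genes in RGC, 3 in amacrine (1 member, Nr4a3), 0 in cone and 2 in Müller glia nuclei, against 0, 0, 1 and 0 by edgeR. With no filter, edgeR's calls were 36 in amacrine (5 members), 36 in bipolar, 24 in rod, 11 in cone and 36 in Müller glia nuclei, and 11 in the comparison of genotype effects (1 member). In amacrine nuclei the stricter gate gave 1 gene, thinning 2 genes (1 member), and leaving out cKO replicates 10 and 13 together, tried after seeing the data, 19. The single cone gene, Gm47283, was lost (0 genes) with the order-of-magnitude step alone, without doublet removal, after thinning and without cKO replicates 10 and 13. Leaving out 1 library gave 0 to 1 gene in amacrine (1 without cKO replicate 13), 0 to 1 in cone and 0 to 5 in Müller glia nuclei (5 without control replicate 1), and 1 to 9 genes and 0 to 1 member for the genotype effects.

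Between classes, rods had 5038 calls from barcodes of the order-of-magnitude step only, and 4126 (7 members) after thinning, against 8957 (17 members), and cones 4704 after thinning against 7206. With control libraries only, chosen after seeing the data, rods had 11 members called and cones 4124 genes and 2 members (7 over all libraries). Thinned subclass counts were 1198 for Opn4 or Eomes (3 members; 2523 and 15 unthinned), 610 for Spp1 (0 members; 3939 and 10), 1123 for Foxp2 (6 members; 2172 and 13) and 0 members for Chrm2 (4 unthinned). The thinned Tbr1 comparison could not be fitted, and DESeq2 gave it 215 genes against 449 (219 to 449 without 1 library). Leaving out 1 library gave 2 to 5 members for Chrm2 (2 without cKO replicate 12), 5 to 9 around Fos (5 without cKO replicate 10) and 366 to 571 genes around Piezo2 (366 without control replicate 2), where all libraries gave 4, 8 and 598. The Fos split gave 47 genes by DESeq2 and 402 genes (14 members; 259 genes higher and 143 lower) unthinned, against 119 (8 members). The Piezo2 split gave 143 genes when thinned, 1 member without the filter and 1 with library as a block.

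The share of nuclei with at least 2 of 7 members, cKO minus control, moved in RGC nuclei from 0.737 to 3.34 percentage points unthinned, and in amacrine nuclei from 5.02 to 10.1 unthinned and 1.89 for at least 3 members. In cones it went from 2.87 to 0.0 for at least 3 members. Signs changed for Npas4 in RGC nuclei between genotypes (log2 -0.029 without cKO replicates 10 and 13), for Trib1 there (0.06, 0.067, 0.027 and 0.102 without control replicate 1, control replicate 3, cKO replicate 10, and cKO replicates 10 and 13, and down to -0.306 without cKO replicate 12), for Ifrd1 in rods (-0.114, -0.063 and -0.02 without control replicate 3, cKO replicate 10 and cKO replicate 11), and for Jun in Müller glia (0.246 without cKO replicates 10 and 13). Thinned, Per1 in Opn4 or Eomes nuclei was at -0.007 and Nr4a3 in Spp1 nuclei at 0.103. At 2000 UMIs a nucleus 3 of the members called in Opn4 or Eomes nuclei were still called, and 0 of those in Spp1 and Chrm2 nuclei.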

Other observations

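Heat shock genes encode chaperones and are induced by protein damage. In rod nuclei 6 of 10 were called higher than in RGC nuclei and 2 lower (edgeR, all genes 20% and 29.5%). Hspa1a and Hspa1b, the inducible HSP70 genes, were higher (log2 3.07 ± 0.33 and log2 2.92 ± 0.58), as were Hsp90aa1 (log2 1.4 ± 0.1) and Dnajb1 (log2 1.05 ± 0.28). Bag3, a cochaperone, was lower in rod (log2 -2.42 ± 0.75) and amacrine nuclei (log2 -2.48 ± 0.4) and higher in Müller glia (log2 1.9 ± 0.27). In amacrine nuclei 0 of 9 heat shock genes were higher and 2 lower, and in Müller glia 2 of 10 were higher and 0 lower, against 15.9% and 14.8% of all genes in amacrine nuclei and 23.2% and 29.7% in Müller glia. In Opn4 or Eomes nuclei 1 of 9 was higher (all genes 7.41%), and around Fos 0 of 6 were called by edgeR, with 0 at an unadjusted p under 0.05. Of the nerve injury and integrated stress genes tested, 1 of 10 was higher in amacrine nuclei (Ecel1, log2 5.77 ± 0.42) and 4 lower, with the same shares of all genes as above. In Opn4 or Eomes nuclei Gal, the galanin gene, was the only higher of 9 (log2 2.51 ± 0.33).

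In Müller glia, low in Nr4a1, Nr4a3 and Npas4, 11 of 23 other early response genes were higher than in RGCs and 8 lower, against 23.2% and 29.7% of all genes. Zfp36l1, which promotes mRNA decay, stood log2 8.37 ± 0.16 above RGC nuclei, Ccn2 and Ccn1, targets of YAP, log2 6.11 ± 0.22 and log2 5.17 ± 0.38, and Cebpd log2 5.44 ± 0.25. Among the lower were Plk3 (log2 -4.75 ± 0.73), Bdnf (log2 -2.34 ± 0.15) and Vgf (log2 -1.26 ± 0.21). Clock genes besides Per1 were higher in Müller glia for 8 of 12 tested and lower for 1, led by Nr1d1 (log2 2.42 ± 0.11) and Per3 (log2 1.86 ± 0.07). Bipolar nuclei had 8 of 12 higher and 0 lower (all genes 19.5% and 26.1%). In Opn4 or Eomes nuclei 0 of 12 were higher and 4 lower (all genes 7.41% and 6.95%), Hlf (log2 -1.08 ± 0.09) by the most.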
